A study of Mus musculus with 2 samples.

Results

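The 10 genes described here are Fos, Jun, Junb, Egr1, Atf3, Ier2, Dusp1, Zfp36, Hspa1a and Hspa1b, which are often read in single-cell data as a mark of dissociation stress. They were taken by symbol from the 31053 genes listed for the control library, each matched 1 row, and their raw molecule counts were read in cells with at least 1000 detected genes and at most 10% mitochondrial counts. The series holds 1 library of epithelial cells sorted from control mouse lungs at embryonic day 15 and 1 library of the same kind from embryos in which the LEF/TCF transcription factors, the nuclear effectors of canonical Wnt signalling, were knocked out. Both were made with the 10x 3′ chemistry, in which each captured RNA molecule carries a unique molecular identifier (UMI). The number of embryos, the control genotype and what drives the knockout are not given in the sources used here, and the expression of the knockout library was not analysed here, so every value below comes from 1 control library and no comparison has a replicate.

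Immediate early genes are transcribed within minutes of a stimulus, without new protein synthesis, when kinases such as ERK, JNK and p38 activate factors already bound at their promoters. Their messages are short-lived, and several encode proteins that feed back on the signal that induced them. Growth factors induce them in intact tissue, and enzymatic dissociation and cell sorting can induce them as well, together with heat shock genes, which are switched on by HSF1 when proteins misfold. In embryonic lung, the epithelial tip is exposed to FGF signalling, which acts through ERK.

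The members fell into 3 roles. Fos, Jun, Junb, Atf3 and Egr1 encode transcription factors, the first 4 of the bZIP family that forms AP-1 and related dimers and the last a zinc-finger factor. Dusp1 encodes a phosphatase that inactivates p38 and JNK, Zfp36 a protein (tristetraprolin) that promotes decay of AU-rich messages, and Ier2 a small immediate early nuclear protein. Hspa1a and Hspa1b encode nearly identical inducible HSP70 chaperones. On the GRCm38 mouse build, Fos lies at chr12:85473890-85477273, Jun at chr4:95049034-95052222, Junb at chr8:84974484-84978718, Atf3 at chr1:191170296-191218039, Ier2 at chr8:84661331-84662852, Dusp1 at chr17:26505590-26562128 and Zfp36 at chr7:28376784-28380253. Egr1 lies on chromosome 18, and the heat shock pair are neighbours at chr17:34969190-34972156 (Hspa1a) and chr17:34956436-34959238 (Hspa1b). In the annotation Jun overlaps Junos, Junb overlaps Prdx2, Atf3 overlaps Gm24748, Zfp36 overlaps Gm44710, Hspa1a overlaps Gm20481, and the long annotated span of Dusp1 overlaps Ergic1 and 3 other genes. Whether counting used the strand is not given in the sources used here, so reads of such partners may not be separable.

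The sequences just upstream of the transcription start are shown for 6 members: Fos and Jun as the strongest pair, Dusp1 and the heat shock pair for their differences between cell classes, and Zfp36 as the member that departed from the others. They are the 150 bases before the RefSeq start (GRCm38.p6), written 5′ to 3′ on the gene's own strand. Capitals mark matches, on either strand, to TGACG (the core of the CREB/ATF site), TGACNTCA (its full palindrome, which overlaps TGACG when N is G), the CArG box bound by SRF, GAANNTTC (facing half-sites of a heat shock element), TATAAA and CCAAT.

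Fos promoter, chr12:85473740-85473889, plus strand: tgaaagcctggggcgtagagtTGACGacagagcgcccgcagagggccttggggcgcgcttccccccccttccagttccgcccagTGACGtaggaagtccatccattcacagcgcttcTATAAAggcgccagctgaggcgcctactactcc

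Jun promoter, chr4:95052223-95052372, minus strand: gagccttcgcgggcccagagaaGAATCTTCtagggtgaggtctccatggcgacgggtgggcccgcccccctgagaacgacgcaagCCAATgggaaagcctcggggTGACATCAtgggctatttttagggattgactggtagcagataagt

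Dusp1 promoter, chr17:26508473-26508622, minus strand: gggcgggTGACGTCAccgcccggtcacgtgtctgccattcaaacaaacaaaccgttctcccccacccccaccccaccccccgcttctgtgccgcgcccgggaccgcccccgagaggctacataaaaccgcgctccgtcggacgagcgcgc

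Zfp36 promoter, chr7:28379229-28379378, minus strand: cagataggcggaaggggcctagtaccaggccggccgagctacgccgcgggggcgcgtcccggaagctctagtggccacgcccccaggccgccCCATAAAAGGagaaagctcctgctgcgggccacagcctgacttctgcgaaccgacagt

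Hspa1a promoter, chr17:34972157-34972306, minus strand: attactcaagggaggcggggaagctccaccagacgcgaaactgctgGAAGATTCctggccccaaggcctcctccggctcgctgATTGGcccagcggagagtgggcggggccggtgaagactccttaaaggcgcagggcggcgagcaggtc

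Hspa1b promoter, chr17:34959239-34959388, minus strand: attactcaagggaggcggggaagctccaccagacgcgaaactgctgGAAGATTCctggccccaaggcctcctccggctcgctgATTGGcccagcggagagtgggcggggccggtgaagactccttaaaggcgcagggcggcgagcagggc

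The table of promoters held 8 of the 10 members, all but Egr1 and Ier2, and motifs were searched in the 250 bases before the start. TGACG was found in Fos (2 matches), Junb, Atf3 and Dusp1, against 17.8% of all 32851 promoters, and TGACNTCA in Jun and Dusp1, against 7.49%. The Jun match has A in place of N, so only the Dusp1 match, with G, is the full palindrome. Among the 8 promoters searched, a CArG box was found in Zfp36 alone, at positions -58 to -49, against 1.47% of all promoters. Sites farther upstream, and the promoters of Egr1 and Ier2, were not searched, so a missing match is not a missing site. GAANNTTC stood in Jun, Hspa1a and Hspa1b, against 6.69%, while the opposite arrangement TTCNNGAA (7.17% of all promoters) and the AP-1 site TGANTCA (6.75%) were found in none of the 8. TATAAA was found in Fos alone, against 12.4%, CCAAT in Jun, Junb, Hspa1a and Hspa1b, against 33.8%, and GGGCGG, which is not capitalised above, in 32.7% of all promoters and in every member searched except Junb. These are matches of letters and not measured binding. The promoters of Hspa1a and Hspa1b differed at 1 of the 150 bases shown and at 3 of the 250 searched.

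The control library held 3568 barcodes, of which 3457 passed both limits; 89 had too few genes and 90 too high a mitochondrial share. The kept cells carried 53639813 UMIs, with a median of 12826 per cell (range 2013 to 112424), 3049 genes and 2.73% mitochondrial UMIs. The knockout library listed 29 barcodes that were also in the control library. In 249 kept cells at least 4 Xist UMIs stood beside a Y-linked UMI, a pattern that droplets holding cells of 2 embryos can give, and results were also computed without them.

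Together the 10 genes made up 0.166% of all UMIs, or 1664 CPM (UMIs per 1000000 UMIs of the same cells), and Fos, Jun and Ier2 held 74.5% of the members' UMIs. Jun was the most widely detected: 29355 UMIs (547 CPM, exact 95% interval 541 to 554) lay in 92.0% of cells. Fos had 21572 UMIs (402 CPM, 397 to 408) in 75.0% of cells and Ier2 had 15567 (290 CPM, 286 to 295) in 85.2%. Egr1 had 7804 UMIs (145 CPM) in 64.2% of cells, Atf3 5773 (108 CPM) in 45.5%, and Junb 3956 (73.8 CPM) in 48.9%. Dusp1 stood at 2648 UMIs (49.4 CPM, 34.2% of cells) and Zfp36 at 1074 (20.02 CPM, 22.4% of cells). Hspa1a had 1418 UMIs (26.4 CPM) in only 391 cells, 11.3% of the total, and Hspa1b had 80 UMIs (1.49 CPM) in 69 cells, 1.996%. For scale, the median of the 11810 genes with at least 50 UMIs was 13.4 CPM. UMIs here count captured 3′ ends and are not divided by transcript length, so the order of genes also carries differences in capture. Intervals cover counting error only.

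After each of 3365 cells was thinned to 5000 UMIs, which left out 92 shallower cells, the share of cells with at least 1 UMI was 81.7% for Jun, 64.7% for Ier2, 61.7% for Fos and 42.5% for Egr1. It was 27.9% for Atf3, 26.3% for Junb, 16.6% for Dusp1, 8.59% for Zfp36, 6.06% for Hspa1a and 0.743% for Hspa1b. At this equal depth 38.3% of cells had no Fos UMI and 3.98% had 8 or more, so Fos ranged widely among cells of like depth. Jun was at 0 in 18.3% of cells and at 8 or more in 3.66%. The variance-to-mean ratio at equal depth, which is 1 for counting noise alone, was 3.51 for Fos, 2.33 for Atf3, 2.05 for Jun, 2.03 for Ier2, 1.85 for Dusp1, 1.57 for Junb, 1.48 for Egr1 and 1.13 for Zfp36. Over the 6684 genes seen in at least 5% of thinned cells the median was 1.03 and the 95th percentile 1.34, so 8 of the 10 members lay above that percentile, Hspa1a included, at 4.30. Zfp36 lay below it, and Hspa1b (1.07) was seen in too few cells to enter that set. This ratio rises with level at a given relative spread, and the genes were not matched for level. The variance beyond counting noise, divided by the squared mean, gave another order. It was 0.401 for Jun, 0.701 for Egr1, 0.705 for Ier2, 1.31 for Fos and 1.35 for Zfp36. Junb stood at 1.52, Atf3 at 2.63, Dusp1 at 3.55, Hspa1b at 8.96 and Hspa1a at 22.7.

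**Figure D1:**
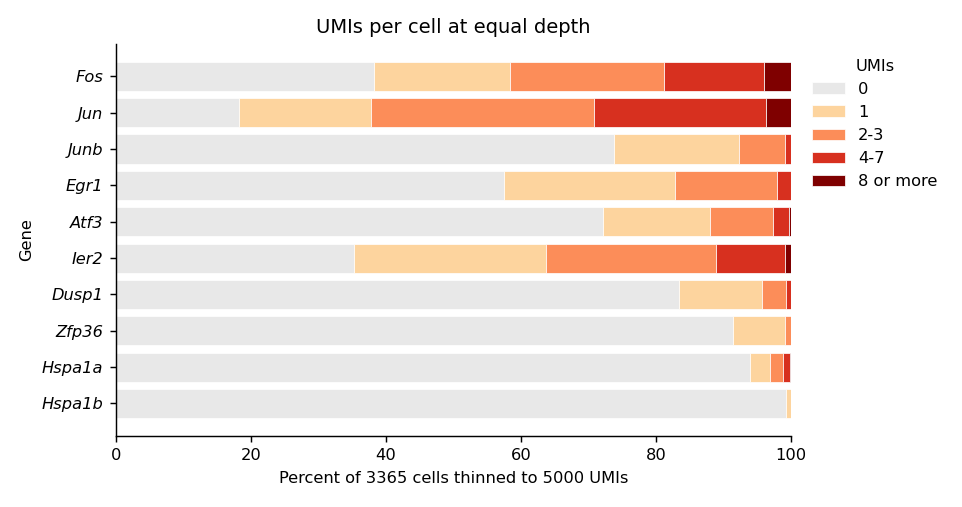
Share of 3365 control cells, each thinned to 5000 UMIs (x axis, percent), by number of UMIs of each member gene (colours). Jun, Ier2 and Fos were seen in most cells, while 93.9% of cells had no Hspa1a UMI and 99.3% no Hspa1b UMI.

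Hspa1a had the highest variance-to-mean ratio of the members. The 35 cells (1%) richest in it held 35.0% of its UMIs, compared with 5.51% for Jun, 5.76% for Ier2, 7.11% for Fos and 14.5% for Dusp1. In all, 100 cells with at least 5 Hspa1a UMIs held 63.2% of its UMIs, and 3066 cells had none. Those 100 cells were chosen by Hspa1a, so its own level there is no finding. In the same cells Hspa1b stood at 11.9 CPM against 0.634 CPM in the cells with no Hspa1a UMI. The HSP70 co-chaperone gene Dnajb1 stood at 103 against 45.3 CPM and the small heat shock gene Hspb1 at 32.7 against 6.58 CPM. Hsph1, another heat shock gene, was level, at 25.4 against 23.9 CPM. Fos stood at 620 against 382 CPM and Zfp36 at 19.2 against 20.2 CPM. Of the 100 cells, 58 were in the airway-like class described next, against 604 of the 3066 cells without an Hspa1a UMI, and their median depth was 15668 against 12553 UMIs. The part of class and depth in these differences was not tested. Hspa1a had 17.7 times the UMIs of Hspa1b, a comparison of 2 near-identical genes that depends on how reads were assigned. Of the 477 stretches of 124 bases (the read length) in the last 600 bases of the Hspa1a transcript, where 3′ libraries are mostly read, 0 occur in Hspa1b. Over the whole transcript 1206 of 2844 such stretches (42.4%) do.

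Cells were grouped by clustering that left out the members, the stress lists, the Wnt list and the cell-cycle lists. Of 8 clusters, 5 large epithelial ones held 3349 cells. Cluster 1 (780 cells) was airway-like, led by Sox2 and Scgb3a2 with Sox21, Cyp2f2 and Krt15. Clusters 0, 2, 3 and 4 (815, 632, 579 and 543 cells) were distal progenitor-like: all 9 distal markers, among them Sox9, Id2, Etv5 and Sftpc, were higher there than in cluster 1. The lineage markers summed to 465 CPM for the 8 airway genes in airway-like cells and 19.6 CPM in distal progenitor-like cells, and to 1054 and 3592 CPM for the 9 distal genes. Cluster 5 (43 cells) was mesenchymal-like, and cluster 6 (37 cells) stayed unnamed. Cluster 7 (28 cells) had a median mitochondrial share of 0.0573% and was kept apart by a limit set after the data were seen. The label epithelial held for most cells: the 5 pan-epithelial markers summed to 1751 CPM over all cells, and to 51.2 CPM in the mesenchymal-like cluster, which gives the scale of epithelial RNA outside epithelial cells. No class is known to lack the members, so a class background for them cannot be given.

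Among the 5 large epithelial clusters, 9 of the 10 members were highest in airway-like cluster 1 and 9 were lowest in distal cluster 2, a cluster with Col18a1, Etv5 and Mki67 among its leading genes. Of the 11692 genes tested, 38.4% were highest in cluster 1 and 11.8% lowest in cluster 2, and 6.48% were both, as were 8 of the 10 members. Cluster 2 also carried the 4 megakaryocyte markers, at a summed 135 CPM against 0.641 to 2.15 CPM in the other large clusters, and the mixed Xist and Y-linked pattern was seen in 14.5% of cells in cluster 0 and 11.5% in cluster 1, against 3.32%, 0.864% and 2.03% in clusters 2, 3 and 4; the part of either in the members' levels was not tested. Fos stood at 599 CPM in cluster 1, 413 in cluster 0, 412 in cluster 4, 251 in cluster 3 and 201 in cluster 2. Clusters 0 and 4 did not differ in Fos beyond counting error, and the other steps did. Jun followed the same order over a narrower range, at 630, 587, 567, 504 and 370 CPM. Dusp1 had that order as well, at 77.9, 48.4, 44.6, 29.8 and 24.5 CPM. Junb (106 to 41.9 CPM) and Ier2 (378 to 198 CPM) were also highest in cluster 1 and lowest in cluster 2, with clusters 0 and 4 alike within their intervals. Egr1 stood at 216 CPM in cluster 1, 148 in cluster 0, 124 in cluster 3, 105 in cluster 4 and 98.5 in cluster 2, where the last pair overlapped in their intervals. Atf3 covered the narrowest range, from 137 CPM in cluster 1 through 116 in cluster 3 to 89.1 in cluster 2. Zfp36 departed from the pattern, with its highest level in cluster 3 (26.9 CPM) and 19.6 CPM in cluster 1. Hspa1a stood at 67.1 CPM in cluster 1 and between 7.83 and 20.2 CPM in the distal clusters. Hspa1b, at 3.61 CPM in cluster 1, was between 0.735 and 1.15 CPM in the others.

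The highest cluster was at least 1.5-fold above the lowest for 10 of 10 members, but so it was for 68.0% of the 11692 genes tested, and the median ratio over those genes was 1.73. The clusters also differed in depth and mitochondrial share: median UMIs were 10525 in cluster 1, 19883 in cluster 0, 11326 in cluster 2, 10383 in cluster 3 and 13422 in cluster 4. The 8 mesenchymal markers summed to 18.6 CPM in airway-like and 1.74 CPM in distal progenitor-like cells, against 1532 in cluster 5. In airway-like cells 4 of the 8 (Col3a1, Postn, Tcf21 and Meox2) had no UMI. Only Dcn of the 8 met the marker limit there, 2-fold over all other cells. Among the small clusters, the unnamed cluster 6 had 730 CPM of Fos and 712 of Jun, and the mesenchymal-like cluster had 489 CPM of Fos, 179 of Dusp1 and 28.1 of Atf3. Cluster 7 had the lowest Fos, at 17 CPM (4.63 to 43.5, from 4 UMIs), with Egr1 at 8.50, Jun at 140 and Ier2 at 183 CPM. Its 28 cells also had 80.8 CPM of Cyr61 against 630 over all cells. Epithelial markers were mixed there: Nkx2-1, a lung epithelial factor, stood at 438 against 344 CPM, and Epcam at 340 against 764. The 5 pan-epithelial markers summed to 1186 against 1751 CPM. Of 2 widely expressed genes, Actb was lower (1692 against 2695 CPM) and Eef1a1 slightly higher (5818 against 5480). Hspa1a and Hspa1b had 0 UMIs there, with an exact interval that reaches 15.7 CPM. These cells also had almost no mitochondrial UMIs, and the part of that in the members' levels was not tested.

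**Figure D2:**
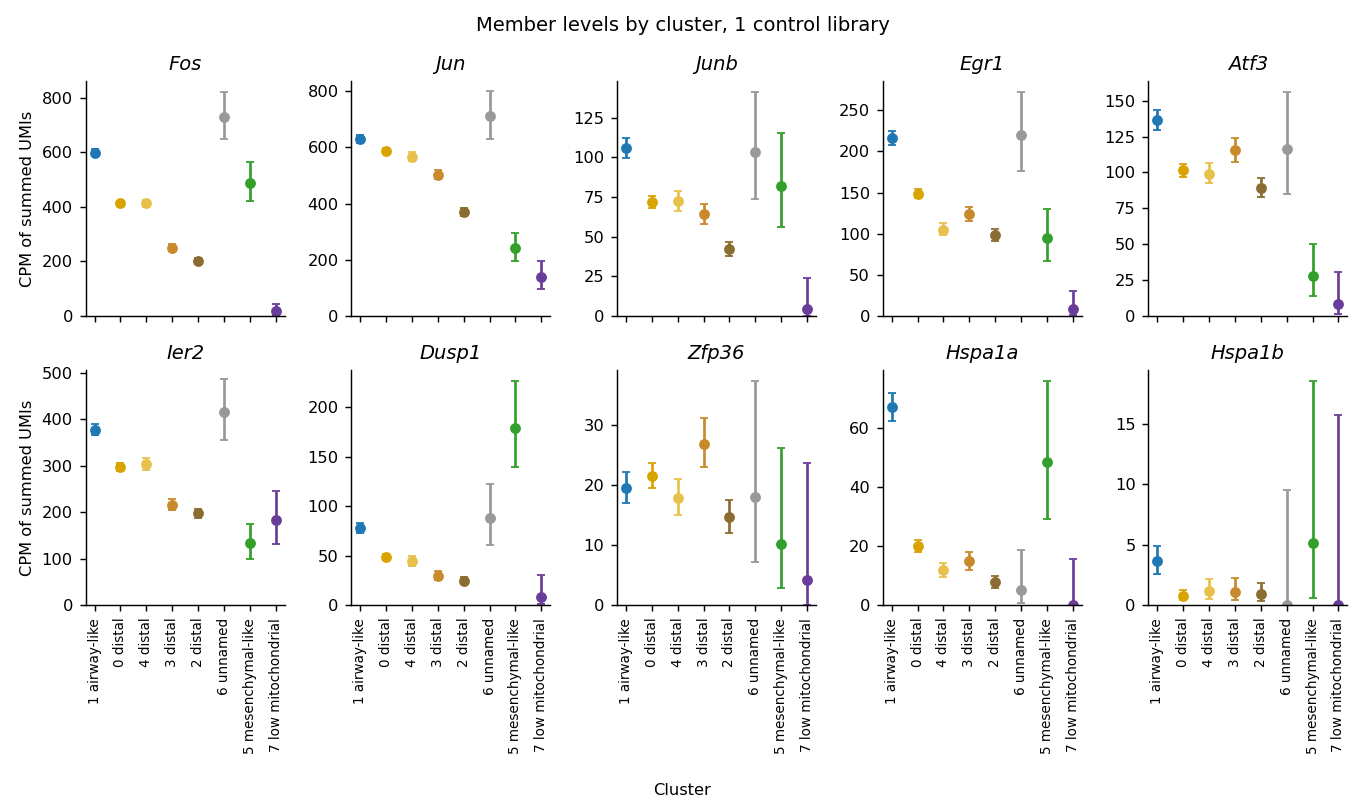
CPM of summed UMIs (y axis) of each member in 8 clusters of the control library (x axis), with exact Poisson 95% intervals that cover counting error only. In the 5 large epithelial clusters 9 members were highest in airway-like cluster 1, and Zfp36 was highest in cluster 3.

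Set against all distal progenitor-like cells (2569), the airway-like cells (780) carried more of 9 members, and 6 of the 10 stood at or past 1.5-fold: Fos, Junb, Egr1, Dusp1, Hspa1a and Hspa1b. Of the 11720 genes tested, 14.7% were at least 1.5-fold higher in airway-like cells and 5.53% at least 1.5-fold lower. The median log2 ratio was 0.74 over the members and 0.13 over all genes tested, so most genes also leaned toward airway-like cells. The share of all genes above 1-fold was not computed, so the count of 9 has no exact background. Zfp36, the 1 member not higher, lay at percentile 29.8 of all genes tested, and Jun at percentile 63.3. Among the transcription factors, Fos stood at 599 CPM in airway-like and 346 in distal progenitor-like cells, 1.73-fold (1.68 to 1.78). Egr1 stood at 216 and 127 CPM, 1.70-fold (1.62 to 1.79), and Junb at 106 and 65.0 CPM, 1.63-fold (1.52 to 1.74). Atf3, at 137 and 101 CPM, was 1.35-fold higher, and Jun, at 630 and 528 CPM, 1.19-fold higher, so both stayed under the limit. Of the others, Dusp1, the kinase phosphatase, stood at 77.9 and 40.2 CPM, 1.94-fold (1.78 to 2.10), and Ier2 at 378 and 267 CPM, 1.42-fold. Zfp36 did not differ beyond counting error, at 19.6 and 20.4 CPM, 0.961-fold (0.825 to 1.12). The heat shock pair differed most: Hspa1a stood at 67.1 and 15.4 CPM, 4.36-fold (3.92 to 4.86), and Hspa1b at 3.61 and 0.896 CPM, 4.03-fold (2.52 to 6.46, from 41 and 37 UMIs).

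The airway-like cells were shallower (median 10525 against 13347 UMIs), had a higher mitochondrial share (median 3.22% against 2.57%) and a lower share of S-phase and G2/M UMIs (0.546% against 0.882%). The mixed Xist and Y-linked pattern was seen in 11.5% of airway-like and 6.03% of distal progenitor-like cells, and without such cells 6 of 10 members were again past 1.5-fold, with a median log2 ratio of 0.76. The difference was also recomputed within terciles of depth. In the shallowest tercile Fos stood at 604 CPM in airway-like and 234 in distal progenitor-like cells, 2.58-fold (2.40 to 2.78), and in the deepest at 585 and 383 CPM, 1.53-fold (1.47 to 1.59). Hspa1a was 9.40-fold, 6.31-fold and 2.79-fold higher from the shallowest to the deepest tercile, and Ier2 1.84-fold, 1.44-fold and 1.28-fold. Dusp1 stayed at 2.46-fold, 1.88-fold and 1.87-fold. With the median ratio over the terciles, 6 of 10 members were again at or past 1.5-fold, and so were 6 when terciles of the S-phase and G2/M share were used. Within each tercile Zfp36 had an interval that held 1.

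**Figure D3:**
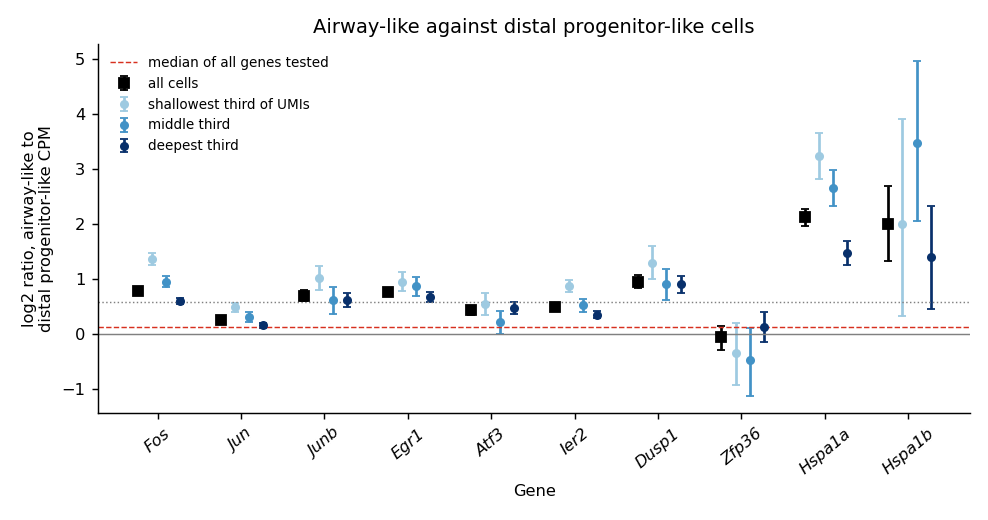
Log2 ratio of CPM in airway-like to distal progenitor-like cells (y axis) for each member (x axis), over all cells (black squares) and within terciles of UMIs per cell (blue circles), with exact 95% intervals for counting error. The dotted line marks 1.5-fold and the dashed line the median of all genes tested, a log2 ratio of 0.13; Fos and Hspa1a showed their largest ratios in the shallowest tercile.

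Other immediate early genes leaned the same way. For each list below, the background over all genes tested was 14.7% at least 1.5-fold higher and 5.53% at least 1.5-fold lower. The median log2 ratio over all genes tested was 0.13. Of 40 listed, 38 had at least 50 UMIs; 14 were at least 1.5-fold higher in airway-like cells and 1, Ier3, was lower, with a median log2 ratio of 0.42. Cebpd, a bZIP factor of inflammation, stood at 4.76 and 1.14 CPM, Egr3 at 3.35 and 0.824, and Gadd45b, a stress sensor of MAPK signalling, at 20.6 and 8.63. Other chaperones showed no common shift in their median, which was 0.01 against 0.13 over all genes. Of 20 chaperones 4 were higher (Hspb1, Dnajb1, Dnajb4 and Hspa4l) and none was lower. Hspb1 stood at 17.8 and 5.21 CPM. Genes of the endoplasmic reticulum and integrated stress responses lay the other way, with 5 of 13 lower and 1 higher, a median of -0.47, and examples in Creld2 (35.7 against 62.8 CPM) and Sesn2, which was higher (6.61 against 2.40 CPM). Of 9 ERK feedback and FGF response genes 4 were lower in airway-like cells and none higher. Among these were Etv5 (64.7 against 238 CPM) and Etv4 (0.374-fold), which are also markers that name the distal class. None of the 12 kinases and factors upstream of the immediate early genes passed 1.5-fold in either direction; Srf, the factor that binds the CArG box, stood at 17.1 and 12.7 CPM, and Mapk3, which encodes an ERK kinase, was 1.34-fold higher. Of 18 other dissociation-linked genes 2 were higher, the redox gene Txnip (22.2 against 6.64 CPM) and the cell-cycle inhibitor Cdkn1a (14.8 against 4.53), and 2 were lower. These counts lie near the shares over all genes, and the median of that list was 0.02. Of 7 p53 and apoptosis genes 3 were higher, among them Trp53inp1 (8.90 against 1.87 CPM) and Bbc3 (29.7 against 11.0), which encodes PUMA.

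A high mitochondrial share is often taken as a mark of damaged cells, and the members did not follow it as a group. From the lowest to the highest tercile of mitochondrial share (cells up to 2.42% and from 3.11%), Fos stood at 408 and 391 CPM, Jun at 578 and 507, Ier2 at 301 and 283, Junb at 71.6 and 74.0 and Zfp36 at 19.0 and 19.9. Egr1 was higher in the highest tercile, at 130 and 163 CPM, and so was Atf3, at 98.6 and 122 CPM. Dusp1 stood at 47.0 and 52.3 CPM. At or past 1.5-fold were 2 of 10 members, Hspa1a (21.0 and 39.3 CPM, 1.87-fold, 1.65 to 2.14) and Hspa1b (1.07 and 2.56 CPM, 2.38-fold, 1.35 to 4.26), against 9.93% of 11093 genes higher and 6.43% lower. The median log2 ratio was 0.11 over the members and 0.06 over all genes.

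The terciles of mitochondrial share also differed in their cells. Airway-like cells made up 37.6% of the highest tercile and 7.72% of the lowest, and median depth was 9209 against 15204 UMIs. Within distal progenitor-like cells alone, Fos was lower in the highest tercile, at 250 against 407 CPM, 0.615-fold (0.587 to 0.644). There 1 of the 9 members tested was at least 1.5-fold lower and none higher, against 10.4% of genes lower and 4.09% higher, and the median log2 ratio of the members was -0.37, against -0.02 over all genes. Dusp1 stood at 31.2 against 45.3 CPM, Ier2 at 227 against 297, Junb at 53.6 against 69.2 and Jun at 467 against 580. Hspa1a stood at 12.8 against 16.6 CPM, below 1-fold, where over all cells it was above. Egr1 and Atf3 did not differ beyond counting error in these cells. Within airway-like cells Fos was level, at 576 against 562 CPM, and 1 of 9 members, Hspa1a, passed the limit, at 89.7 against 53.4 CPM (1.68-fold, 1.40 to 2.02), against 5.52% of genes higher and 4.20% lower. Egr1 was also higher in the highest tercile of airway-like cells, at 239 against 187 CPM (1.28-fold, 1.15 to 1.42). Atf3 was higher too, at 151 against 112 CPM (1.34-fold, 1.17 to 1.53), while Jun was lower, at 588 against 650 CPM. Junb, Ier2, Dusp1 and Zfp36 did not differ there beyond counting error. The difference between the classes in these ratios was not tested. Among cells of at most 14000 UMIs Hspa1a was again the 1 of 9 members past the limit, 1.87-fold higher, where 13.4% of genes were higher and 4.14% lower.

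**Figure D4:**
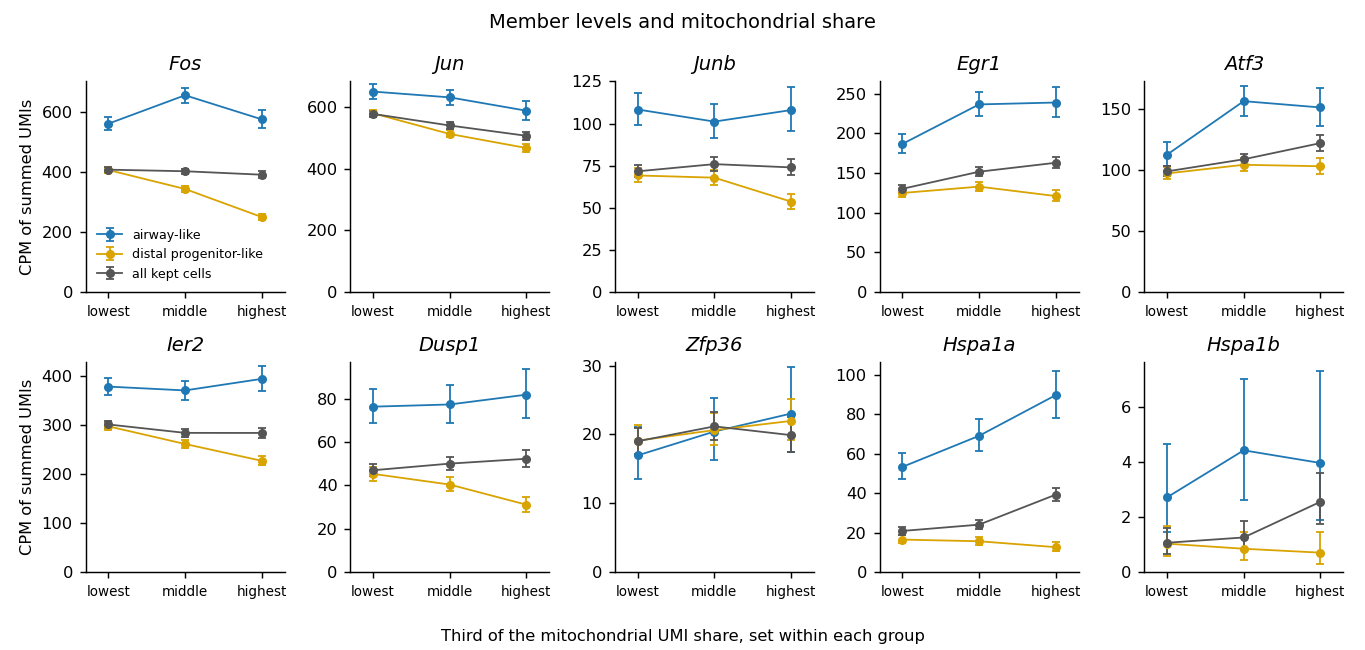
CPM of each member (y axis) in the lowest, middle and highest tercile of the mitochondrial UMI share (x axis), with terciles set within all kept cells, airway-like cells and distal progenitor-like cells; bars are exact Poisson 95% intervals for counting error. Fos went from 407 to 250 CPM in distal progenitor-like cells and from 562 to 576 CPM in airway-like cells.

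Cells at the edge of the filter had no more Fos or Jun than the library as a whole, and Hspa1a was higher in 1 edge group. The 111 removed barcodes, with a median of 865 UMIs, had 307 CPM of Fos (224 to 409), 320 of Jun, 120 of Egr1 and 253 of Ier2, and 1 Hspa1a UMI. The 165 kept cells with 5 to 10% mitochondrial UMIs had 329 CPM of Fos, 446 of Jun, 156 of Egr1 and 77.8 of Atf3. Hspa1a stood there at 52.1 CPM (39.3 to 67.9), against 26.4 over all cells. The 33 kept cells with 1000 to 1500 genes had 282 CPM of Fos (192 to 401) and 492 of Jun.

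Depth per cell went with modest differences over all cells. Between the deepest tercile (from 15803 UMIs) and the shallowest (up to 10323 UMIs), Fos stood at 430 and 367 CPM, Jun at 580 and 501, Egr1 at 163 and 129, and Zfp36 at 21.7 and 15.7 CPM, 1.38-fold (1.15 to 1.67). Only Hspa1a was at or past 1.5-fold, 1 of 10, and it was lower in deep cells, at 24.8 against 39.3 CPM (0.630-fold, 0.554 to 0.717). Over 11352 genes 5.50% were higher and 4.53% lower, and the medians were 0.14 for members and 0.07 for all genes. In the deepest tercile 20.7% of cells had the mixed Xist and Y-linked pattern, against 0.347% in the shallowest, and airway-like cells made up 22.7% and 33.1%. Within distal progenitor-like cells 2 of 9 members were at least 1.5-fold higher in deep cells, against 7.83% of genes higher and 1.60% lower: Fos at 384 against 255 CPM, and Hspa1a, in the opposite direction from all cells, at 17.9 against 10.6. Within airway-like cells 2 of 9 members passed the limit: Zfp36 was higher in deep cells, at 23.4 against 14.7 CPM (1.59-fold, 1.04 to 2.53), and Hspa1a lower, at 49.1 against 101 CPM, against 11.2% of genes higher and 5.55% lower. Among cells of at most 14000 UMIs Hspa1a was the 1 of 9 past the limit, at 23.6 against 44.8 CPM, where 3.65% of genes were higher and 8.78% lower.

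The cell cycle was compared through the summed share of 42 S-phase and 52 G2/M genes, a comparison added after the data were seen. From the lowest to the highest tercile of that share, Fos stood at 490 and 390 CPM, Junb at 91.4 and 65.7, Egr1 at 171 and 130, Dusp1 at 62.0 and 42.5 and Hspa1a at 37.7 and 25.4 CPM. Jun (575 and 545 CPM) and Zfp36 (18.6 and 19.0) were closer together. None of the 10 members reached 1.5-fold, where 8.64% of 11177 genes were higher and 6.77% lower, and the median log2 ratio was -0.31 for the members and 0.07 for all genes. Airway-like cells made up 39.9% of the lowest and 15.0% of the highest tercile. Within distal progenitor-like cells the median was -0.08, with 0 of 9 members past 1.5-fold, where 9.47% of genes were higher and 2.46% lower. There Hspa1a lay the other way from all cells, higher in the highest tercile at 16.4 against 12.6 CPM (95% interval of the ratio 1.05 to 1.61). So did Ier2, at 278 against 252 CPM, and Jun, at 543 against 512 CPM (95% interval of the ratio 1.03 to 1.10). Fos stood at 362 against 349 CPM, within counting error. Within airway-like cells the median was -0.19, again with 0 of 9, where 14.0% of genes were higher and 5.19% lower. Among cells of at most 14000 UMIs, 5 of 9 members (Fos, Junb, Atf3, Dusp1 and Hspa1a) were at least 1.5-fold lower in the highest tercile, where 6.58% of genes were lower and 11.6% higher. In those cells Fos stood at 294 against 513 CPM and Atf3 at 77.5 against 135, and airway-like cells made up 17.2% of the highest and 44.4% of the lowest tercile.

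Cells rich in 1 immediate early gene tended to be rich in the others. Pearson correlations were taken over 3365 cells of 1 library, each thinned to 5000 UMIs, on log2(UMIs + 1), and are given as descriptions. The 28 pairs among the 8 members outside the heat shock pair ran from 0.04 (Dusp1 with Zfp36) to 0.38 (Fos with Jun), with a median of 0.19. Fos with Egr1 stood at 0.33, Fos with Ier2 at 0.32 and Fos with Junb at 0.29. In all 28 pairs the share of cells with both genes exceeded the product of the single shares, for Fos and Egr1 32.8% against 26.2%. Pairs of genes outside the members were not set against their products, so this count has no background. Each gene was also set against the sum of the other 7: Fos reached 0.51, Jun 0.47, Egr1 0.39, Ier2 0.38, Junb and Atf3 0.32, Dusp1 0.25 and Zfp36 0.15. Low counts pull such values toward 0, so the order of the genes also carries their levels. Within distal progenitor-like cells Fos stood at 0.48 and within airway-like cells at 0.52.

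Detection across the 8 genes spread wider than the product of their shares gives. At 5000 UMIs 376 cells (11.2%) had at least 6 of the 8, where the product gives 3.33%, and 596 cells (17.7%) had at most 1, where it gives 6.17%. No set of other genes was compared in this way, and the part of cell class in the spread was not tested. Cells grouped by Fos count show the scale. With 0 Fos UMIs (1288 cells) the mean was 1.71 UMIs of Jun, 0.932 of Ier2, 0.364 of Egr1 and 0.227 of Atf3 per cell, and with 8 or more (134 cells) it was 4.75, 3.52, 1.63 and 1.34. Those groups had median mitochondrial shares of 2.77% and 2.78% and median depths of 11624 and 12712 UMIs before thinning. Airway-like cells made up 14.3% of the first group and 50.7% of the second.

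The heat shock pair correlated weakly with the other members, though not all of its values lay below theirs. Hspa1a and Hspa1b correlated at 0.18 with each other, and both were detected in 0.475% of cells where the product of their shares gives 0.0450%. Their 16 pairs with the other members lay between 0.01 and 0.12. Against the sum of the other 8, Hspa1a reached 0.14 over all cells, 0.04 within distal progenitor-like and 0.22 within airway-like cells. Over all cells Hspa1a thus lay above the 99th percentile of genes outside the members (0.11) and just under Zfp36 (0.15 against its other 7). Within airway-like cells Dusp1 stood at 0.21 and Zfp36 at 0.14. Hspa1b reached 0.03 over all cells, and low counts pull the values of both heat shock genes toward 0.

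Outside the members, 6 of the 10 genes most like the sum of the 8 were further immediate early genes. Of 6675 genes seen in at least 5% of cells the median correlation was 0.001 and the 99th percentile 0.11, and 81 (1.21%) reached 0.1, of which 9 were on the list of other immediate early genes. The highest was the matricellular gene Cyr61 (0.48), followed by the zinc-finger factor Klf6 (0.40), the antiproliferative gene Btg2 (0.37), Jund (0.29), the nuclear receptor Nr4a1 (0.27) and Fosb (0.24). After these came the cyclin-kinase inhibitor Cdkn1c (0.22), Ccnd2 (0.22), Tsc22d1 (0.22) and the actin gene Actg1 (0.20). Cyr61 stood at 0.49 within distal progenitor-like and 0.43 within airway-like cells, whereas Cdkn1c, which leads the airway-like cluster, stood at 0.14 and -0.03. Cyr61, Klf6 and Btg2 were the 3 closest genes of each of 7 members, Fos, Jun, Junb, Egr1, Atf3, Ier2 and Dusp1. Zfp36 was closest to Nr4a1 (0.12), Pthlh (0.10) and Fosb (0.09). The lowest values belonged to Ptma (-0.19), Col18a1, Birc5, Rplp1 and H2afz, all between -0.15 and -0.19. The 9 were of 23 listed immediate early genes in that set, compared with 2 of 16 chaperones, 2 of 5 ERK feedback genes, 2 of 14 other dissociation-linked genes, 0 of 10 genes of the endoplasmic reticulum and integrated stress lists, 0 of 8 upstream kinases and factors 0 of 41 S-phase genes and 0 of 46 G2/M genes. At or below -0.1 were 5 of the 46 G2/M genes (Ube2c, Birc5, Cks1b, Cenpa and Ccnb1), 1 chaperone gene (Hspe1) and 1 ERK feedback gene (Etv5). The heat shock pair's closest genes were Rassf9, S100a6 and Scgb3a2 (each 0.18), Map1b (0.17) and Anxa1 (0.16). Scgb3a2 and S100a6 lead the airway-like cluster, and the 5 lay between -0.02 and 0.07 within distal progenitor-like cells and between 0.10 and 0.21 within airway-like cells.

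**Figure D5:**
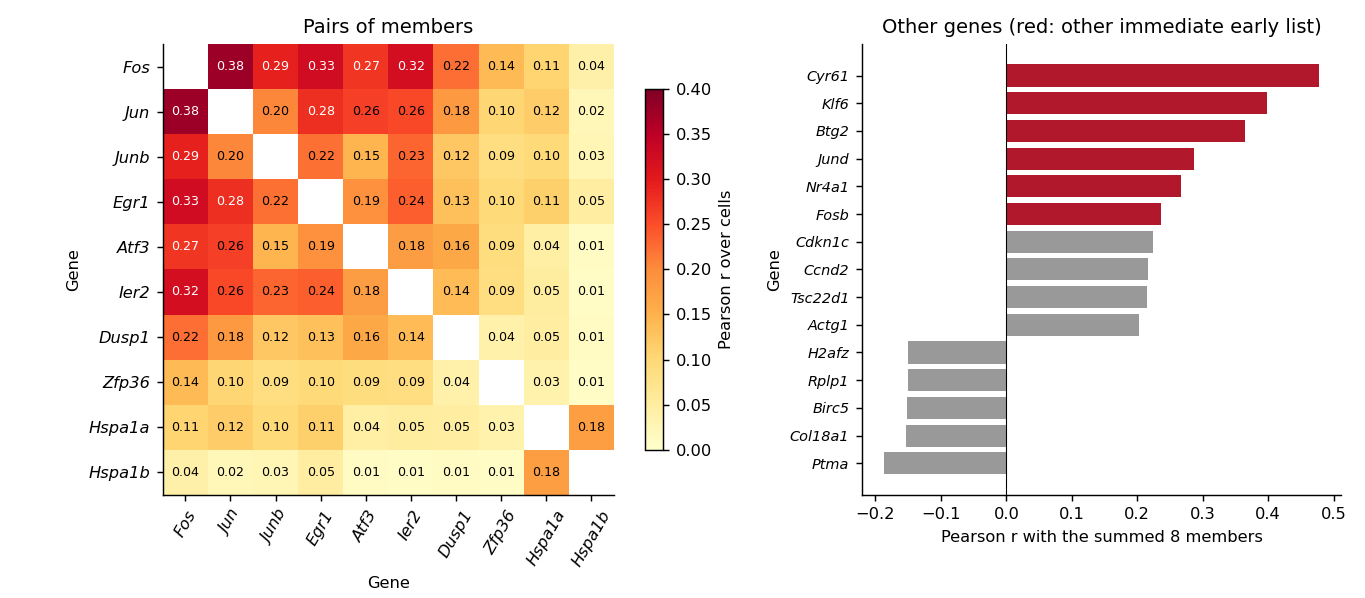
Left, Pearson correlation over 3365 thinned cells for each pair of members (both axes, genes); right, genes with the 10 highest and 5 lowest correlations (x axis) with the summed 8 members outside the heat shock pair, red for the list of other immediate early genes. Fos and Jun form the strongest pair, at 0.38, and Cyr61 the closest outside gene, at 0.48.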

How the data were processed

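Gene expression was measured in single cells of 1 control and 1 knockout library; only the control values are used, and the knockout library's expression is not analysed here. The deposited values are raw UMI counts per gene and barcode, written by matrix software version 3.0.1, per the file headers. Cell Ranger, Seurat and the mm10 build are named in the submitters' processing notes; aligner settings, annotation and cell calling are not given in the sources used here. Cells with at least 1000 genes and at most 10% mitochondrial UMIs were kept. No doublet caller was run; results were recomputed without cells with at least 4 Xist UMIs and a Y-linked UMI, and in cells of at most 14000 UMIs. Clusters were built with scanpy 1.11.5 and leidenalg 0.10.2 (2000 variable genes, 20 components, 20 neighbours, resolution 0.5) without the members and the stress, Wnt and cell-cycle lists. A cluster was named from at least 3 listed markers at 2-fold over other cells, with at least 1 among its 10 leading genes; epithelial clusters left unnamed were called distal progenitor-like where at least 3 distal markers were 1.5-fold over airway-like cells, which is how clusters 0, 2, 3 and 4 were named; 1 cluster with a median mitochondrial share under 0.5% was set apart after seeing the data.

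Levels are CPM of summed UMIs with exact Poisson 95% intervals, ratios have exact conditional intervals, and shares of cells exact Clopper-Pearson ones in the results behind the text. All cover counting error only. With 1 library there is no test, and a gene counts as called at 1.5-fold among genes with at least 50 UMIs over both sides. Cells were thinned to 5000 UMIs with a fixed seed for shares at equal depth and correlations. The scripts were tested on simulated data. Named genes are all members, the 3 largest ratios of each list and the closest genes by correlation; others were named after their values were seen. Members and lists were chosen with earlier results of these data known. Promoters come from RefSeq on GRCm38.p6 and gene positions from the GENCODE annotation of GRCm38.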

Additional observations from a re-analysis of the deposited data

How the results depend on the processing

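The airway-like to distal difference kept its direction in the median over the members under all 19 alternatives (0.69 to 0.96), and 6 or 7 members were past 1.5-fold except at a 2-fold limit, which left 2. The ratios within terciles of depth and of the cell-cycle share were added after seeing the data. That median moved outside its counting interval, from 0.74, to 0.82 with at most 5% and 0.96 with at most 20% mitochondrial UMIs, 0.89 with at least 2000 genes, 0.86 and 0.85 with clustering seeds 1 and 2, 0.83 at resolution 0.8 and 0.90 with 30 components. The cause of these shifts was not tested, and the distal class held between 54.1% and 78.7% of cells across clusterings. The members' summed level, 1664 CPM, moved to 1710 outside mitochondrial genes, 1555 in cells of at most 14000 UMIs, 1627 without Xist-high cells with a Y-linked UMI and 1625 without the 1% of cells richest in members. Those richest cells were chosen by the same summed level, so a fall without them was fixed in advance and only its size is given.

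For mitochondrial share, the median turned from 0.11 to -0.37 in distal progenitor-like cells, and the count went from 2 to 1 with at most 14000 UMIs, without the Xist-high cells, with 5 bins in place of 3, within either class and at 2-fold. In all but the last Hspa1b was under 50 UMIs and not tested. With at most 14000 UMIs its ratio was 8.09-fold, from 12 and 2 UMIs, so there the missing test alone lowers the count by 1. Within the classes its ratio was short of the limit, 1.46-fold in airway-like and 0.687-fold in distal progenitor-like cells. Within distal progenitor-like cells the 1 is Fos, lower. For depth, the median moved from 0.14 to -0.13 with at most 14000 UMIs, 0.30 in distal and -0.010 in airway-like cells; the count went from 1 to 0 without the 1% richest cells, with at most 5% mitochondrial UMIs, with at least 2000 genes and at 2-fold, and to 2 with 5 bins and within either class. Hspa1a reversed in distal progenitor-like cells, to -0.38 for mitochondrial share and 0.76 for depth (log2). For the cell cycle, where every alternative was chosen after seeing the data, the median moved from -0.31 to -0.076 in distal, -0.19 in airway-like and -0.62 in cells of at most 14000 UMIs, with 5 members past the limit there and 1 within terciles of depth. The median correlation of all 45 pairs, 0.12, moved to 0.21 without thinning and 0.19 for the 8 members outside the heat shock pair, an alternative also added after seeing the data.

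No paired analysis was possible because each group is 1 library and the labels give no replicate number. Depth limits Hspa1b most, with 80 UMIs in all, and Zfp36 next; their per-class values carry wide counting intervals.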
